A study of Ovis aries with 18 samples.

Results

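The genes examined here build and move the cytoskeleton of the cell and anchor it to its surroundings: actin and its regulators, myosins, integrins and adhesion plaque proteins, crosslinkers, tubulins, kinesins, dynein, dynactin and intermediate filaments. They were chosen by gene symbol, taking every SNP outside chromosome X whose gene symbol begins like a member of these families. The choice took 568 of the 24,355 SNPs of the table, in 90 of its 5,810 genes. The study sequenced RNA of perirenal adipose tissue (PRAT) to look for allelic imbalance (AI), an unequal number of reads from the 2 alleles of a heterozygous animal. The 18 animals were singleton fetuses at 132 days of gestation, 16 female and 2 male. All were pure bred merino of wild type genotype from a common sire and unrelated ewes, received no treatment, and their mothers were kept on a maintenance diet. They form 1 group, so no groups were compared. The animals had between 85,147 (RS902) and 178,276 (RS917) reads at these SNPs, with a median of 134,297, and the median depth at their heterozygous SNPs lay between 64 and 114 reads.

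The labelled tissue was checked against genes that mark it. Of 9 adipocyte genes 6 had SNPs in the table, among them ADIPOQ with a median depth of 13,411 reads and UCP1, the heat producing protein of brown fat, with 11,840. The deepest of the cytoskeletal genes, VIM, had a median depth of 4363 reads. Of 12 skeletal muscle genes only DES was listed, with 130 reads, and of 8 leukocyte genes 4 were listed, with 26.1 to 60.9 reads. Endothelial genes were represented by 5 of 6, with CDH5 the deepest at 348 reads, and smooth muscle genes by MYH11 and SMTN of 6, at 170 and 171 reads. ACTA2 is among the 4 counted as unlisted. However, SNPs given as ACTB on chromosome 22 lie where a later gene table has ACTA2, so smooth muscle may be understated. The median of these SNPs over animals was 474 reads, where MYH11 had 137 on that measure. The table lists only genes with a called SNP, so a gene without one is not shown to be absent.

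Actin filaments and microtubules are polymers of small globular proteins that grow and shrink by exchange of subunits. Myosins walk along actin and kinesins and dynein along microtubules, while integrins clamp the actin network to the extracellular matrix and intermediate filaments give the cell tensile strength. In fat cells the vimentin cage, cortical actin and microtubules surround the lipid droplets, and the network is rebuilt when a precursor rounds up and fills with lipid. Several of these families consist of near-identical copies at different places of the genome, so that a short read can resemble more than 1 gene.

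AI was tested on the reads of each allele summed over the heterozygous animals, with a likelihood ratio test and adjustment over all SNPs of the table. Of the 564 SNPs with a heterozygous animal, 264 (46.8%) showed AI, against 38% of all SNPs tested. The reference allele was higher at 215 of them (38.1% of SNPs tested, against 28.9% of all SNPs) and the alternate allele at 49 (8.69%, against 9.01%). With or without AI, the median reference share was 0.523 at the tested SNPs of these genes and 0.519 in the whole table. The SNPs with AI lay in 61 of the 90 genes (67.8%, against 58.3% of all genes), but genes with many SNPs had more chances: 22 genes had 1 SNP, while 15 genes held 301 SNPs. A quasi-binomial test, which takes each animal as a replicate, called 195 of 563 SNPs (34.6%, against 24.5% of all SNPs) in 50 genes (55.6%, against 41.2% of all genes). The heterozygous animals differed from one another at 93 SNPs (16.5%, against 15.4% of all SNPs). The SNPs of these genes were deeper, with a median depth of 94.7 reads against 65.5 of all SNPs. Greater depth makes a given departure easier to call in each of these tests. Whether depth bears on the differences from the whole table was not tested.

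Many of the largest departures stood at SNPs with unusual genotype calls, here as in the whole table. At 86 SNPs (15.1%, against 9.89% of all SNPs) 15 or more of the 18 animals were called heterozygous, and 57 SNPs were heterozygous in all 18. Homozygous calls backed by 20 or more reads existed at 507 SNPs, and 50 of these (9.86%, against 3.44% of all SNPs) had 2% or more reads of the allele the calls say is missing. A SNP heterozygous in 5 to 14 animals with less than 2% of such reads is called clean below. Clean SNPs numbered 448, in 84 genes, and the quasi-binomial test called 98 of them (21.9%, against 19.3% of the clean SNPs of the whole table). Among the 80 SNPs past the quasi-binomial test with a share at least 0.2 from an equal one, 44 (55%, against 48.7% of all such SNPs of the table) were heterozygous in 15 or more animals, 44 (55%, against 55.9%) had another SNP within 5 bp, and 11 (13.8%, against 23.7%) were clean. Of those 11, 10 were in tubulins and microtubule associated proteins, 6 of them in TUBA4A alone, and 1 was in an actin regulator.

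**Figure D1:**
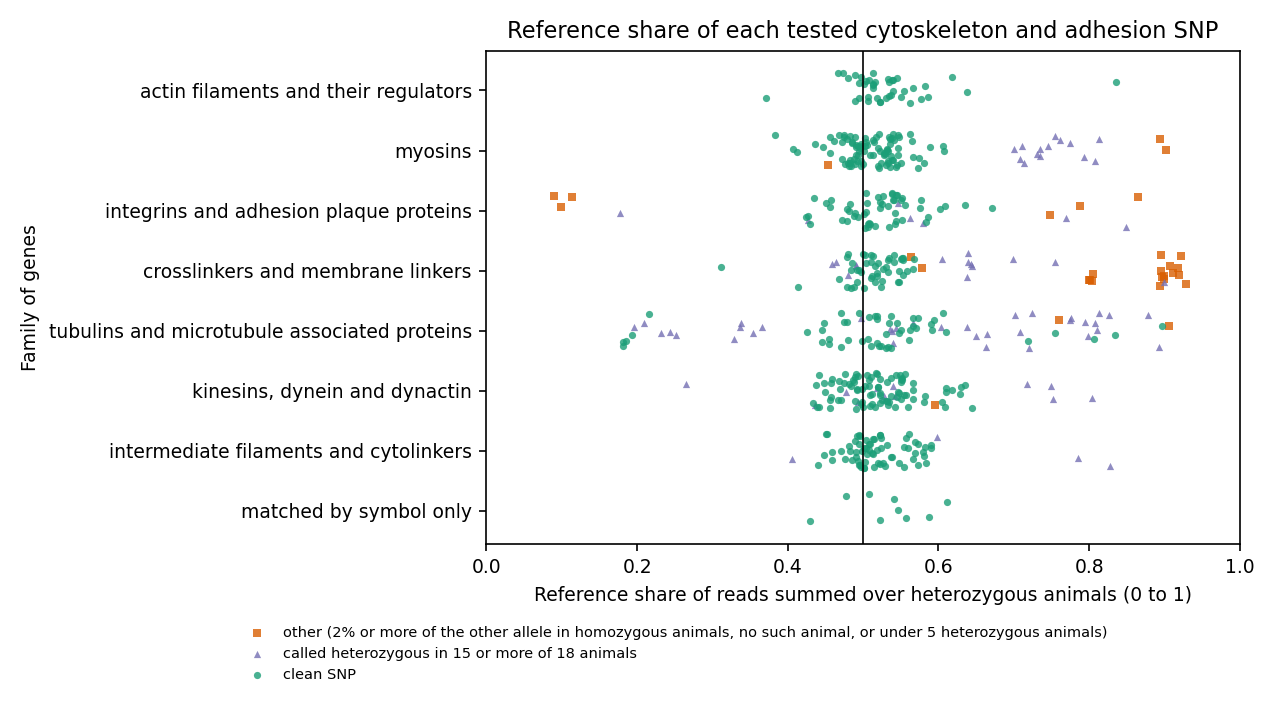
Share of reads with the reference allele at each of the 564 tested SNPs (horizontal axis, 0 to 1), by family of genes (vertical axis, points shifted vertically for visibility), with clean SNPs as circles, SNPs heterozygous in 15 or more animals as triangles and other SNPs as squares. Most clean SNPs lie close to the line of an equal share, and the points far from it are mostly triangles and squares. Most of the clean SNPs far from the line are in the tubulin family, among them the 6 of TUBA4A.

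Actin, its regulators and the actin related proteins had 41 SNPs in 16 genes, and all of these SNPs were clean. Families were assigned by gene symbol, so an actin related protein is counted here whatever its function. AI was found at 18 (43.9%, against 33.4% of all clean SNPs), and 14 (34.1%, against 19.3%) passed the quasi-binomial test. The median depth of the family was 203 reads, against 65.5 of all SNPs. The symbol ACTB, for cytoplasmic beta-actin, was attached to 13 SNPs on 3 chromosomes. In the RefSeq gene table of a later sheep assembly, ARS-UI_Ramb_v3.0, ACTB is on none of these chromosomes. Between the genes that flank the SNP of chromosome 11, NPLOC4 and SLC38A10, that table lists ACTG1, cytoplasmic gamma-actin. Between the neighbours of the 7 SNPs of chromosome 22, ATAD1 and FAS, it lists ACTA2, vascular smooth muscle actin, and between those of the 5 SNPs of chromosome 3, STAMBP and MOB1A, it lists ACTG2, enteric smooth muscle actin. The SNPs are therefore described by chromosome. TUBA1A, TUBA1C, MYL12B and DCTN3 are not listed in that table, and no gene of similar symbol lies between the neighbours of their SNPs, so these names rest on the deposited table alone.

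At the chromosome 11 position 50,420,625 the reference share ranged from 0.532 over a median of 0.567 to 0.595, a mean of 0.564 ± 0.0201 (SD, n = 12 animals), with the reference allele higher in all 12 (summed share 0.563, adjusted P = 8.08e-08 in the quasi-binomial test). The 7 SNPs of chromosome 22 had shares between 0.497 and 0.537, with 2 past the quasi-binomial test, and the 5 of chromosome 3 between 0.514 and 0.539, with 1. The loci also differed in how depth varied between animals. Per 1,000,000 reads at all SNPs, the median depth of the chromosome 11 SNP ranged from 106 over 149 to 224, that of chromosome 22 from 33.1 over 102 to 286, and that of chromosome 3 from 3.84 over 36.5 to 145. MYH11, the smooth muscle myosin heavy chain, ranged from 7.43 over 33.7 to 95.5. RS929 was lowest at chromosomes 22 and 3 and at MYH11, RS933 was highest at both actin loci and RS920 at MYH11. SMTN, the other smooth muscle gene listed, did not follow: it ranged only from 27.1 in RS905 to 50.8 in RS910, with RS929 at 37.0. DES, listed under skeletal muscle, ranged more like MYH11, from 3.92 in RS905 and 4.87 in RS929 to 69.8 in RS920 and 73.2 in RS933. In bulk tissue, fewer cells of a type and less RNA per cell cannot be told apart, and whether smooth muscle content bears on the allele shares was not tested.

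CAPZA2, a subunit of the protein that caps the fast growing end of actin filaments, had the largest imbalance of the family. At its synonymous SNP on chromosome 4, position 51,428,699, the 12 heterozygous animals had 1166 reference and 229 alternate reads. Their reference share ranged from 0.793 over a median of 0.826 to 0.904 (adjusted P = 1.11e-14), and the dispersion between animals was 1.05, where 1 is counting error. The other 6 animals were called homozygous for the alternate allele and had 0% reference reads, and no animal was called homozygous for the reference allele. CAPZB, the partner subunit, had 1 SNP with a share of 0.506.

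ARPC1B belongs to the ARP2/3 complex, which starts branches on existing filaments. At position 36,890,085 of chromosome 24 its 9 heterozygous animals ranged from 0.486 over a median of 0.532 to 0.836, and the dispersion was 49.7. RS918 alone was at 0.836, with 1355 reads, whereas the next highest animal was at 0.574. The same animal stood at 0.858 at position 36,886,736, where the 7 other heterozygous animals lay between 0.492 and 0.585. RS918 also had more ARPC1B reads than any other animal at 3 SNPs: 1355 at the first SNP, where the others had 276 to 546, 688 at the other, where they had 159 to 277, and 658 at position 36,887,989, where it was homozygous and they had 118 to 277. Whether depth and share are related in this animal was not tested. The summed share of 0.618 at the first SNP (adjusted P = 0.0184) fell to 0.527 without RS918 (adjusted P = 0.0804 in the quasi-binomial test).

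ACTR10, an actin related subunit of dynactin, showed a smaller imbalance shared by the animals: at position 67,432,867 of chromosome 7 the share ranged from 0.531 over 0.563 to 0.629, above an equal share in all 12 animals (adjusted P = 3.1e-05). Of its 6 SNPs 5 passed both tests, 4 with the reference allele higher and 1 with the alternate allele higher. At its SNP with the smallest P-value, position 67,428,096, the share was 0.586 and 13 of 14 animals had the reference allele higher. CFL2, a cofilin that severs filaments, and ACTR1B, a further dynactin actin, also had a SNP past the quasi-binomial test, with a share of 0.582 in the former and 0.371, the alternate allele being higher, in the latter. The other 10 genes, ACTR1A, ACTR3B, ACTR5, ACTR6, ACTR8, ARPC5L, CAPZB, WDR1 and the tropomyosins TPM1 and TPM2, had no SNP with AI among 15, with shares between 0.473 and 0.551.

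Myosins, the motors of actin, had 108 SNPs in 14 genes, and AI was found at 38 of 107 tested SNPs (35.5%), near the percentage over all SNPs. The quasi-binomial test called 22 (20.8%, against 24.5% of all SNPs), all with the reference allele higher. Of these, 7 were among the 90 clean SNPs (7.78%, against 19.3% of all clean SNPs). MYH9, the heavy chain of non-muscle myosin IIA that contracts cortical actin, had AI at all 5 of its SNPs in the summed test. In the quasi-binomial test 2 of them passed. The shares of MYH9 were between 0.520 and 0.547, where the median of all tested SNPs was 0.519. At position 179,544,466 of chromosome 3 its 5 heterozygous animals ranged from 0.531 over 0.547 to 0.560, all with the reference allele higher (adjusted P = 0.00474). At position 179,563,840 of the same gene the 8 animals ranged from 0.463 over 0.531 to 0.608, and the adjusted P of 0.0484 passed the threshold only narrowly: it lay between 0.0630 and 0.230 without RS917, RS919, RS929, RS930 or RS933.

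MYO10, an unconventional myosin of filopodia, reached 0.607 at position 56,363,011 of chromosome 16, with 5 animals between 0.551 and 0.645 (median 0.610, adjusted P = 0.00583). This imbalance was moderate, and the reference allele was higher in every heterozygous animal, which was a condition for naming the SNP. Of the 14 SNPs of MYO10, all clean, 3 showed AI in each test, and the median share was 0.494. MYO1C, a membrane bound myosin, had 1 of 3 SNPs past both tests, with a share of 0.539.

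MYH14, the heavy chain of non-muscle myosin IIC, had 26 SNPs, the most of the family, and 11 of them lay side by side on chromosome 14, from position 55,515,896 to 55,515,918. At the last of these, a missense SNP, 17 animals ranged from 0.690 over 0.778 to 0.864 (adjusted P = 4.57e-12). All 11 were called heterozygous in 17 or 18 animals, and the 1 animal called homozygous at this SNP still had 6.98% reads of the other allele. The quasi-binomial test called these 11 SNPs and none of the other 15 of the gene, whose shares were between 0.436 and 0.575.

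MYH10, which encodes non-muscle myosin IIB, showed the same arrangement at 3 SNPs of its 3' UTR on chromosome 11, positions 27,626,583 to 27,626,587. At the last of these 17 animals ranged from 0.705 over 0.807 to 0.927 (adjusted P = 2.23e-15), and the 1 animal called homozygous had 10.7% of the other allele there and 12.6% at position 27,626,585. The 4 other SNPs of MYH10 had shares between 0.468 and 0.536. In MYH11 2 adjoining SNPs of the 3' UTR had shares of 0.894 in 9 animals and 0.903 in 1, with 5.77% and 5.60% of the other allele in homozygous animals, while the share of its 6 other SNPs lay between 0.499 and 0.581.

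MYL12B, a regulatory light chain of non-muscle myosin, had large differences between animals at 1 of its 4 SNPs. At position 37,775,885 of chromosome 23 the 9 heterozygous animals ranged from 0.0616 over 0.544 to 0.604, with RS917 at 0.0616 and RS929 at 0.0703 and the others at 0.462 or above. RS917 and RS929 had 93.8% and 93.0% alternate reads, close to the 94.9% to 97.8% of the 7 animals called homozygous for the alternate allele. The summed share of 0.453 became 0.4996 without RS917 and 0.492 without RS929, and the summed test no longer passed in either case. MYL6, an essential light chain, had 1 SNP at which all 18 animals were called homozygous, with 4.50% of reads from the other allele. MYO19, MYO18A and MYL12B had SNPs with AI only in the summed test, and MYO1E, MYO6 and MYO9B had none, with shares between 0.483 and 0.545.

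Integrins, the heterodimeric receptors of the extracellular matrix, and the plaque proteins behind them had 67 SNPs in 14 genes. AI was found at 30 of 66 tested SNPs (45.5%, against 38% of all SNPs), and 23 (34.8%, against 24.5%) passed the quasi-binomial test. Of 53 clean SNPs 11 passed that test (20.8%, against 19.3% of all clean SNPs). ITGAV, the alpha V chain that binds vitronectin and fibronectin, had 18 SNPs, all clean, and 5 with AI. At position 121,570,570 of chromosome 2, in the 3' UTR, 10 animals ranged from 0.490 over 0.584 to 0.679 (adjusted P = 0.00681). At position 121,568,998 the alternate allele was higher in all 6 animals, with a reference share from 0.352 over 0.417 to 0.478 (adjusted P = 0.0279). That adjusted P lay between 0.0546 and 0.0927 without RS917, RS929, RS937 or RS969.

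ITGAL, the alpha chain of the leukocyte integrin LFA-1, had 9 SNPs, all with AI, 7 with the reference allele higher and 2 with the alternate allele higher, at shares of 0.427 and 0.434. The missense SNP at position 26,703,808 of chromosome 24 had the largest clean departure of the family. Its 7 heterozygous animals ranged from 0.580 over 0.681 to 0.744, all above an equal share (adjusted P = 7.15e-05), and the share at position 26,719,252 was 0.635. At a further pair of adjoining missense SNPs the reads did not follow the genotype calls. At position 26,712,545 the 3 animals called heterozygous had 20% to 27.6% alternate reads, and the 14 animals called homozygous for the reference allele with at least 20 reads had 12.9% to 36.4%. At position 26,712,548 the 5 called heterozygous had 20.7% to 22.9% and the 12 such animals called homozygous 6.67% to 35.7%. The calls did not separate the animals at either position.

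ITGA7, a laminin receptor chain, was the second deepest of the genes, with a median depth of 792 reads. It had 4 adjoining SNPs at positions 163,483,454 to 163,483,459 of chromosome 3, the first of them homozygous in all 18 animals, and 2 at positions 163,492,254 and 163,492,255. At position 163,483,455, a missense SNP, the 6 heterozygous animals had reference shares between 0.0809 and 0.105 with a median of 0.0917 (adjusted P = 2.18e-16), and the 12 animals called homozygous for the alternate allele had 6.33% reference reads. At position 163,492,254 all 18 animals were called heterozygous, with shares between 0.157 and 0.206 around a median of 0.175. At the neighbouring base 5 animals called heterozygous had 13.1% to 14.6% alternate reads and 13 called homozygous for the reference allele had 11.1% to 14%.

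Elsewhere in ITGA7 the shares were closer to equal but differed between animals. At position 163,480,871, with 1458 reads per heterozygous animal, the 9 animals ranged from 0.437 over 0.502 to 0.616, a dispersion of 19.0, and the summed share was 0.510 (adjusted P = 0.664). RS905 and RS940 were above 0.6 and RS902, RS929, RS918 and RS969 below 0.5. At position 163,483,195, heterozygous in the same 9 animals, RS905 and RS940 were again highest, at 0.647 and 0.620.

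ITGA6, another laminin receptor chain, varied in a mirrored way at 2 neighbouring synonymous SNPs. At position 136,265,815 of chromosome 2 the 5 heterozygous animals ranged from 0.312 over 0.400 to 0.746, a dispersion of 20.8, and at position 136,265,860 the same 5 animals ranged from 0.283 to 0.732. RS943, the highest at the first SNP at 0.746, was the lowest at the second at 0.283, and RS917 and RS953 had 0.312 and 0.378 at the first and 0.633 and 0.732 at the second. The summed share at the first SNP was 0.472 (adjusted P = 0.744), and without RS943 it was 0.390 (adjusted P = 0.0240). The 3' UTR SNP at position 136,227,718 had a share of 0.849 in 15 animals, from 0.804 over 0.853 to 0.890 (adjusted P = 1.17e-19), and 8.32% of the other allele in 3 homozygous animals.

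Of the other adhesion genes, ITGB5 had 1 of 2 SNPs past both tests with a share of 0.602, ITGA1 1 of 2 at 0.580, which was heterozygous in 16 animals and so not clean, and TLN2, a talin that links integrins to actin, 1 of 7 at 0.609. ZYX, the zyxin of adhesion plaques, had 3 SNPs heterozygous in all 18 animals with shares of 0.426, 0.562 and 0.769, and a clean SNP at 0.506. PARVA had AI only in the summed test. VCL, PXN, ITGA3, ITGA5 and ITGB4 had none among 11 SNPs, with shares between 0.430 and 0.551. ITGA3 and ITGB4 were also the shallowest genes, at 18.2 and 19.8 reads.

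The crosslinkers and membrane linkers tie actin filaments to each other and to the membrane. They had 80 SNPs in 6 genes at a median depth of 361 reads, against 65.5 of all SNPs. AI was found at 46 (57.5%, against 38% of all SNPs), and 37 (46.2%, against 24.5%) passed the quasi-binomial test. Of 48 clean SNPs 9 passed that test (18.8%, against 19.3% of all clean SNPs), and the animals differed at 25 SNPs (31.2%, against 15.4% of all SNPs). ACTN4, an alpha-actinin that bundles actin, had 18 of its 20 SNPs with AI, and 8 of them are synonymous SNPs of a short stretch of chromosome 14, positions 47,649,588 to 47,649,696.

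At 7 of the 8 ACTN4 SNPs of that stretch the reference share was between 0.899 and 0.928. At position 47,649,600 the 5 heterozygous animals had 6.63% to 10.7% alternate reads with a median of 7.58%, and the 13 animals called homozygous for the reference allele had 2.49% to 6.41% with a median of 4.98%. The same held at the other 6, and at each the highest homozygous animal was below the lowest heterozygous one by less than 5 percentage points. The remaining SNP, at position 47,649,654, ran from 0.449 over 0.511 to 0.941 in 14 animals, a dispersion of 41.7: RS903 was at 0.941 and RS969 at 0.934, and the others were at 0.574 or below. Its summed share of 0.578 did not pass the quasi-binomial test (adjusted P = 0.114).

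Just before that stretch, 7 further SNPs of ACTN4 were called heterozygous in all 18 animals, with shares between 0.604 and 0.699. The SNP at position 47,648,971 lies between them and is clean: the 7 heterozygous animals ranged from 0.249 over 0.313 to 0.364, all with the alternate allele higher (adjusted P = 3.14e-09), and 11 homozygous animals had 0.0498% of the other allele. The 4 SNPs further into the gene, from position 47,653,614 on, had shares between 0.480 and 0.548. ACTN1, the other alpha-actinin, had 2 SNPs, both heterozygous in 17 animals, with shares of 0.459 and 0.464.

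RDX encodes radixin, which ties actin to membrane proteins. It had 8 adjoining SNPs in its 3' UTR on chromosome 15, positions 19,765,020 to 19,765,034, with shares between 0.799 and 0.896. At position 19,765,023 the 10 heterozygous animals ranged from 0.671 over 0.8288 to 0.851 (adjusted P = 9.15e-11). They had 14.9% to 32.9% alternate reads, and the 8 animals called homozygous for the reference allele had 11.1% to 16.4%, so the ranges overlapped. The next SNP of the 3' UTR, at position 19,765,240, had a share of 0.484 and 0.136% of the other allele in homozygous animals. Of the other 3 SNPs of RDX, 2 passed both tests: a clean one with a share of 0.548, and position 19,766,093 with 0.564, where the 12 animals called homozygous for the alternate allele had only 91.6% to 98.2% alternate reads.

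**Figure D2:**
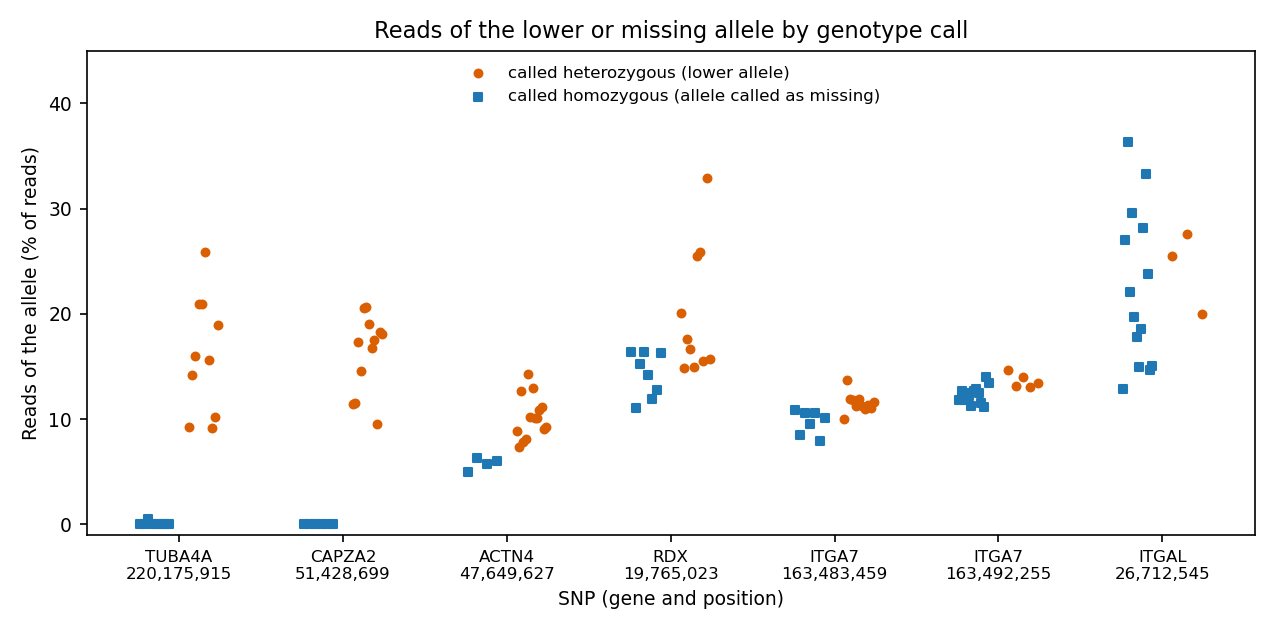
Percentage of reads (vertical axis) at 7 SNPs (horizontal axis), 1 point per animal with at least 20 reads: the lower allele in animals called heterozygous (circles) and the allele called as missing in animals called homozygous (squares). At TUBA4A and CAPZA2 the calls are far apart with homozygous animals near 0%, and at the SNPs of ACTN4, RDX, ITGA7 and ITGAL they adjoin or overlap.

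AHNAK, a giant scaffold under the plasma membrane that is abundant in fat, had 12 SNPs, and the 9 clean ones had shares between 0.469 and 0.541. Its other 3 departed much further. At position 40,277,642 of chromosome 21 all 18 animals were called heterozygous, with shares from 0.845 over 0.903 to 0.929 (adjusted P = 3.15e-22). At position 40,269,856, also heterozygous in 18, they ranged from 0.655 over 0.754 to 0.815 (adjusted P = 2.01e-20), and at the nearby missense SNP at position 40,269,930 the share was 0.911 with 6.88% of the other allele in homozygous animals.

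SPTBN1, the beta-spectrin of the membrane skeleton, had 17 SNPs at a median depth of 487 reads. AI was found at 8 in the summed test and at 4 in the quasi-binomial test, all with the reference allele higher. The median share was 0.515, and the animals differed at 6 SNPs. At position 69,301,496 of chromosome 3 the 7 heterozygous animals ranged from 0.528 over 0.554 to 0.579, all above an equal share (adjusted P = 1.28e-04).

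Tubulins form the microtubule wall, gamma-tubulin and its complex start new microtubules, and the associated proteins stabilise them. The family had 89 SNPs in 14 genes. AI was found at 61 (68.5%, against 38% of all SNPs), and 52 (58.4%, against 24.5%) passed the quasi-binomial test. Of the families it also had the most SNPs heterozygous in 15 or more animals, 35 (39.3%, against 9.89% of all SNPs), of which 22 were in TUBB2A. Of its 52 clean SNPs 20 (38.5%, against 19.3% of all clean SNPs) passed the quasi-binomial test.

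TUBA4A, an alpha-tubulin, had 6 synonymous SNPs on chromosome 2, positions 220,175,915 to 220,177,234. All were clean and all passed both tests. At position 220,175,915 the 10 heterozygous animals had 3434 reference and 682 alternate reads, and their reference share ranged from 0.741 over 0.842 to 0.909 (adjusted P = 1.47e-13). At the other 5 SNPs the alternate allele was higher, with reference shares between 0.181 and 0.216. The 8 homozygous animals at the first SNP, of which 5 carried the reference and 3 the alternate allele, had 0.0238% of reads from the other allele, and this percentage was at most 0.580% at all 6. Of the animals called homozygous for the alternate allele, 2 had more reference reads than the rest: RS903 had 90.8% and 93.5% alternate reads in TUBA4A at positions 220,175,954 and 220,175,993, and RS953 had 93.8% at positions 220,176,311 and 220,176,332.

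The imbalance of TUBA4A was graded among animals. RS930 had the weakest at the first SNP, a reference share of 0.741, and also the weakest at positions 220,175,954 and 220,177,234, at 0.287 and 0.298. RS947 and RS903 had the strongest at the first SNP, at 0.909 and 0.907. The dispersion between animals was between 2.57 and 13.6 over the 6 SNPs, and the animals differed at 5 of them. RS917 was heterozygous only at position 220,175,993, where it had a share of 0.580 while the 8 other heterozygous animals lay between 0.158 and 0.312.

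**Figure D3:**
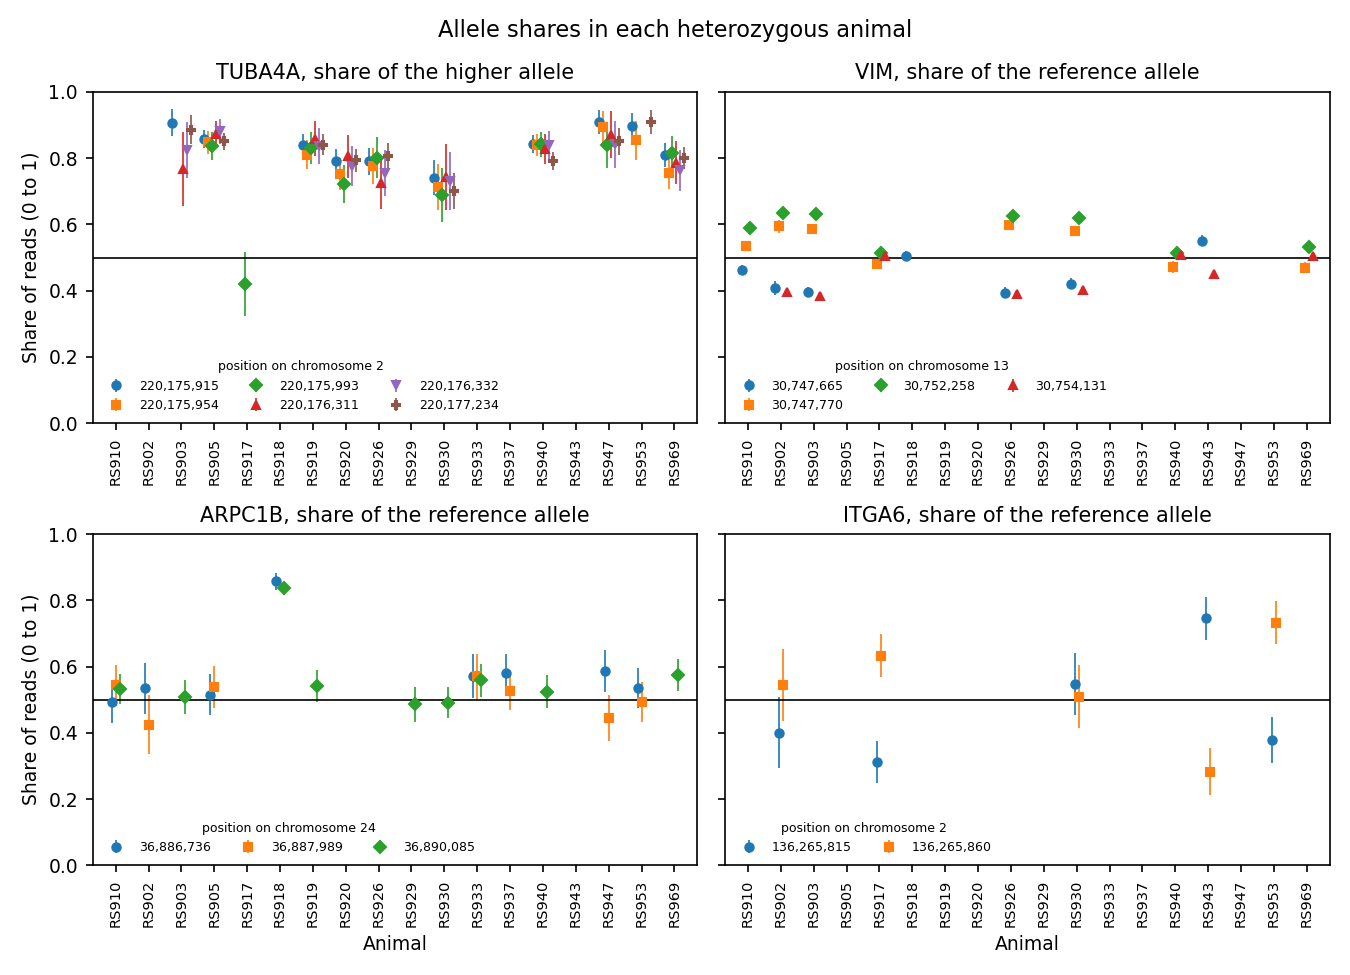
Share of reads (vertical axis, 0 to 1) in each heterozygous animal (horizontal axis) at SNPs of TUBA4A (share of the allele with more summed reads), VIM, ARPC1B and ITGA6 (share of the reference allele), with bars for the 95% counting error of the share by the normal approximation. All TUBA4A animals but RS917 lie between 0.688 and 0.909, RS918 stands alone in ARPC1B, and the 2 SNPs of ITGA6 mirror each other.

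MAP4, the main microtubule associated protein outside neurons, had 1 strong SNP among 7 clean ones. At the missense SNP at position 51,794,111 of chromosome 19 the 5 heterozygous animals ranged from 0.836 over 0.911 to 0.920 (adjusted P = 7.6e-10), and 13 homozygous animals had 0.153% of the other allele. The 6 other SNPs, on both sides of it, had shares between 0.470 and 0.531, and 2 of them passed the summed test and none the quasi-binomial test.

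TUBG2, a gamma-tubulin, had 4 adjoining SNPs on chromosome 11, positions 42,215,468 to 42,215,489, heterozygous in 17 or 18 animals. At position 42,215,471 the share ranged from 0.677 over 0.796 to 0.923 (adjusted P = 2.69e-14), and the 1 homozygous animal had 5.77% of the other allele. At the clean SNP at position 42,215,519 the 11 animals ranged from 0.724 over 0.809 to 0.901 (adjusted P = 3.82e-10), with 0.504% in 7 homozygous animals. At position 42,215,041 the 12 animals were spread from 0.156 to 0.672 around a summed share of 0.455. The RefSeq table does not list the symbol TUBG2, and lists TUBG1, the other gamma-tubulin, between the flanking genes NAGLU and CNTNAP1.

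TUBB2A, a beta-tubulin, had 24 SNPs, all with AI in the summed test and 20 in the quasi-binomial test, and 22 were called heterozygous in 15 or more animals. The SNPs at positions 49,405,381 and 49,405,399 stood apart from the rest, which lay between 49,441,466 and 49,442,157. Whether both groups belong to 1 gene was not tested. The alternate allele was higher at 6 and the reference allele at 18, and neighbouring SNPs went in opposite directions. At position 49,441,686 of chromosome 20 the 18 animals ranged from 0.136 over 0.205 to 0.249 (adjusted P = 2.36e-19), and at position 49,441,995 they ranged from 0.778 over 0.882 to 0.936 (adjusted P = 4.44e-19). At position 49,441,713 the 16 animals called heterozygous had 7.65% to 13.3% alternate reads and the 2 called homozygous had 6.31% and 7.25%. Between the flanking genes SLC22A23 and RIPK1 the RefSeq table lists TUBB2B, a near-identical beta-tubulin, and it does not list TUBB2A.

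TUBA1A, an alpha-tubulin of growing cells, had 7 SNPs on chromosome 3, and 4 were heterozygous in 17 or 18 animals. At the missense SNP at position 136,795,202 the 17 animals ranged from 0.119 over 0.216 to 0.279 (adjusted P = 4.03e-14). Its 2 synonymous SNPs heterozygous in 9 animals had dispersions of 5.79 and 6.40, with shares of single animals from 0.156 to 0.815. TUBA1C had 2 SNPs, at shares of 0.637 in 18 animals and 0.760 in 10. TUBA8 was more even, with 4 of 6 clean SNPs past both tests and shares between 0.518 and 0.590.

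Among the gamma-tubulin complex proteins, TUBGCP3 had 9 SNPs, 4 of them with AI, and the alternate allele was higher at 3 of the 4. Of its 2 SNPs past the quasi-binomial test, a clean one had a share of 0.426, and at position 85,541,073 of chromosome 10, which is not clean, 16 animals ranged from 0.491 over 0.567 to 0.636 (adjusted P = 9.5e-04). TUBGCP2 had 3 of 4 SNPs past both tests, with shares of up to 0.611, and TUBGCP6 had 5 of 8, of which 3 adjoining SNPs were heterozygous in all 18 animals at shares of 0.329 to 0.338. TUBGCP4, TUBGCP5, TUBE1 and MAP1S had no AI at 10 SNPs, with shares between 0.445 and 0.563.

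Kinesins, dynein and dynactin carry cargo along microtubules. They had 101 SNPs in 17 genes, and 38 (37.6%) showed AI, 25 in the quasi-binomial test (24.8%), close to the percentages over all SNPs. DCTN1, the largest dynactin subunit, stood out within the family, with 11 of its 16 clean SNPs past both tests. At the missense SNP at position 96,159,435 of chromosome 3 the 12 animals ranged from 0.549 over 0.645 to 0.722, all with the reference allele higher (adjusted P = 2.14e-06). The nearby SNP at position 96,159,421 was heterozygous in 12 animals and ranged from 0.551 over 0.631 to 0.711 (adjusted P = 7.97e-07). Of the 11, 9 had the reference allele higher.

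DYNC1H1, the heavy chain of cytoplasmic dynein and its motor, had 38 SNPs but only 8 with AI and 3 in the quasi-binomial test, with a median share of 0.509. At position 65,591,184 of chromosome 18 the 6 animals ranged from 0.594 over 0.601 to 0.750 at a mean of 37.7 reads (adjusted P = 0.0145), and at position 65,592,364 the 10 animals ranged from 0.474 over 0.563 to 0.680 (adjusted P = 0.0121). DYNC1LI2, a light intermediate chain, had a share above 0.5 in all 10 animals at position 33,815,268 of chromosome 14, from 0.516 over 0.595 to 0.698 (adjusted P = 5.44e-04).

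DYNLT1, a dynein light chain, had only 5 SNPs, all side by side in its 3' UTR on chromosome 8 and all heterozygous in 17 or 18 animals. At position 81,687,889 the share ranged from 0.706 over 0.794 to 0.864 (adjusted P = 3.33e-15), and at position 81,687,886 from 0.167 over 0.269 to 0.400 (adjusted P = 1.67e-12). The 1 animal called homozygous had 12.5% of the other allele at the former and 16.7% at the latter.

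DCTN3, DCTN5, KIF2A and KIF16B also had SNPs past the quasi-binomial test, with shares between 0.434 and 0.619. DCTN2, KIF1C, KIF3A and KIF13A had AI only in the summed test. DYNC1I2, DYNC1LI1, DYNC2LI1, KIF7 and KIF20B had none at 10 SNPs, with shares between 0.441 and 0.567.

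Intermediate filaments and the cytolinkers that bind them had 73 SNPs in 5 genes. AI was found at 26 of 71 tested SNPs (36.6%, against 38% of all SNPs), and 19 (26.8%, against 24.5%) passed the quasi-binomial test. Both are close to the percentages over all SNPs. VIM encodes vimentin, the intermediate filament of mesenchymal cells and of the cage around lipid droplets, and was the deepest gene, with a median depth of 2652 reads in RS902 to 6390 in RS917. At the missense SNP at position 30,748,009 of chromosome 13 all 18 animals were called heterozygous and ranged only from 0.817 over 0.827 to 0.840, a mean of 0.827 ± 0.00573 (SD, n = 18; adjusted P = 2.32e-39). At the other 5 tested SNPs the shares were between 0.440 and 0.584, and the animals differed by more than counting error, with dispersions from 13.3 to 116. For a given spread of shares the dispersion grows with depth. At positions 30,752,258 and 30,754,131, with means of 6363 and 9182 reads per heterozygous animal, the SD of the shares was 0.0532 and 0.0565. A further 2 SNPs had all 18 animals called homozygous.

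The VIM shares fell into a pattern that followed the call at another SNP of the gene. At position 30,752,258 the 8 heterozygous animals ranged from 0.515 over 0.604 to 0.634 (adjusted P = 3.9e-05). The 5 of them called homozygous for the reference allele at position 30,747,578 lay between 0.590 and 0.634, and the 3 called heterozygous there lay between 0.515 and 0.533. At position 30,754,131 (from 0.384 over 0.426 to 0.509, adjusted P = 0.00181) the corresponding ranges were 0.384 to 0.401 in 4 animals and 0.451 to 0.509 in 4. At position 30,747,770 they were 0.536 to 0.599 and 0.470 to 0.480, and at position 30,747,665 they were 0.394 to 0.462 and 0.505 to 0.551. The ranges did not overlap at any of these 4 SNPs, which share animals and reads of the same transcript, and this comparison was chosen after the values were seen.

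PLEC encodes plectin, which joins intermediate filaments to actin and to the plasma membrane. It had the most SNPs of the 90 genes, 49. Only 9 showed AI and 6 passed the quasi-binomial test, with a median share of 0.510. The largest departure was at position 13,841,356 of chromosome 9, annotated as intronic in a non-coding transcript, where all 18 animals were heterozygous and ranged from 0.678 over 0.791 to 0.852 (adjusted P = 3.92e-18). MACF1, which links actin to microtubules, had 13 clean SNPs, 8 past both tests. The reference allele was higher at 5 of the 8 and the alternate allele at 3. At position 13,876,628 of chromosome 1 the 12 animals ranged from 0.491 over 0.599 to 0.637 (adjusted P = 1.8e-06), and at position 13,855,765 the 6 animals from 0.556 over 0.575 to 0.612 (adjusted P = 1.72e-04).

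The lamins line the nuclear envelope. LMNA had a single missense SNP with a share of 0.508 in 10 animals, from 0.433 over 0.510 to 0.545 (adjusted P = 0.75). LMNB1 had 2 SNPs with AI in the summed test only, at shares of 0.569 and 0.591.

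The rule also took 4 genes by the beginning of their symbol that were placed in none of the families. MAP1LC3A, an autophagy protein that coats the autophagosome, had 3 SNPs with AI, and at position 63,487,490 of chromosome 13 its 8 animals ranged from 0.547 over 0.594 to 0.688 (adjusted P = 1.83e-05). TPMT, a methyltransferase of thiopurine drugs, ranged from 0.512 over 0.553 to 0.669 in 8 animals at position 38,367,574 of chromosome 20 (adjusted P = 0.0160). CFLAR, an inhibitor of caspase 8, and ITGB3BP, a centromere protein, had AI only in the summed test.

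A list of 120 other genes of actin, adhesion and microtubule biology gave a comparison. It had 425 SNPs in 78 genes, and AI was found at 132 of 420 tested SNPs (31.4%, against 38% of all SNPs), with the reference allele higher at 107 and the alternate allele at 25. The quasi-binomial test called 81 SNPs (19.3%, against 24.5% of all SNPs) in 40 genes (51.3%, against 41.2% of all genes). SNPs heterozygous in 15 or more animals made up 7.53% and SNPs with 2% or more of the other allele in homozygous animals 3.38%, where all SNPs had 9.89% and 3.44% and the 90 genes 15.1% and 9.86%. The largest clean departures with the same allele higher in every animal were those of ROCK2, a kinase that activates myosin, at 0.763 in 12 animals (adjusted P = 5.31e-08) and of CAP1, which recycles actin subunits, at 0.719 in 9 animals (adjusted P = 7.78e-11). DAG1, the dystroglycan that binds laminin, had the alternate allele higher, at 0.367 in 6 animals (adjusted P = 1.38e-05).

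The counts were also split by the annotated position of a SNP within its gene. Of the 79 tested missense SNPs of the 90 genes, 48 (60.8%) showed AI, against 42.6% of all missense SNPs, and 30.9% were heterozygous in 15 or more animals, against 18.6%. Of the 48 clean missense SNPs 41.7% showed AI, against 33.1% of all clean missense SNPs. The quasi-binomial test called 27.1% of these clean SNPs, against 19.4%. Of the 45 SNPs annotated in a 3' UTR 26 (57.8%) showed AI, against 42.4% of all such SNPs, and 20 (44.4%, against 17.3%) had another SNP within 5 bp. The 45 lay in 9 genes, and adjoining SNPs share animals and reads, so they are not independent observations. Of the 25 clean ones, however, only 24% showed AI, against 37.2% of all clean 3' UTR SNPs, and 8% passed the quasi-binomial test, against 21%. Of the 377 synonymous SNPs 11.9% were heterozygous in 15 or more animals, against 7.11% of all synonymous SNPs, and AI was found at 172 of 375 tested (45.9%, against 34.9% of all synonymous SNPs). Over the 417 SNPs with animals of at least 20 reads called 0/0 and called 0/1, the highest homozygous and the lowest heterozygous animal were less than 5 percentage points apart, or overlapped, at 33 (7.91%, against 2.61% of all such SNPs). These 33 lay in 11 genes: 8 each in ACTN4 and RDX, 3 each in TUBB2A and TUBG2, 2 each in DYNLT1, ITGAL, MYH10 and MYH11, and 1 each in AHNAK, ITGA6 and ITGA7. Whether reads from a second copy of these genes were counted was not tested, since no sequence was searched.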

How the data were processed

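Paired end RNA-Seq reads of each animal were aligned by the authors with STAR, using Oar v3.1 as the genome, and SNPs and genotypes were called from the same reads with GATK (3.4-46, as the submitters' processing notes give it). The authors deposited the counts of reference and alternate reads of each animal at each SNP, without normalization, and the genotype calls. Further deposited columns hold the authors' own likelihood ratio statistic, its P-value, the higher allele and the pooled reference proportion, and were not used. Positions and consequences are those of the authors' table. The animal written PS910 in the table was taken as RS910.

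Counts were summed over animals called 0/1 and tested with a Poisson likelihood ratio test (1 degree of freedom) against a share of 0.5, with Benjamini-Hochberg adjustment over all 24,244 SNPs with a heterozygous animal and a threshold of 0.05. The adjusted P-values printed are those of the quasi-binomial F test, whose dispersion between animals was moderated with limma (3.58.1, in R 4.3.3) over all SNPs and held at 1 or more. Differences between animals were tested with the Pearson chi-square, adjusted alike. Python 3.11.15 with numpy 2.4.6, scipy 1.17.1 and pandas 2.3.3 was used, and the tests were checked on simulated counts. Reads are not independent molecules, so counting errors are lower bounds.

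Named genes were, per family, up to 3 with the largest clean AI in both tests and the same allele higher in every animal, and the 2 with the most SNPs; the 6 with the largest dispersion at 50 or more reads; the 6 with the most other-allele reads in homozygous animals; up to 8 with AI and 17 or 18 heterozygous animals; and ACTB, TUBB2A, VIM, MYH9, AHNAK, PLEC, LMNA, MAP4 and MACF1 (ACTG1, TUBA1B and TLN1 were also asked for and had no SNP under these symbols). A few genes that these rules name are left out of the text, and the counts include them. Other genes were named after their values were seen. The members and lists were chosen with earlier results of these data known. Gene neighbours come from RefSeq for ARS-UI_Ramb_v3.0, whose coordinates were not used. Flanking sequence of the SNPs was not analysed here. Alternatives changed the null share, adjustment, coverage, depth, SNPs kept, test and animals.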

Additional observations from a re-analysis of the deposited data

Results flagged for a closer look

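Among the 27 groups of animals tested, 1 group per named SNP with 4 to 10 heterozygous animals, 2 had an animal that stood far from the others. At ARPC1B on chromosome 24, position 36,890,085, the reference share of RS918 was 0.836 from 1355 reads, and the other animals of the 9 lay between 0.486 and 0.574. At TPMT on chromosome 20, position 38,367,574, the share of RS926 was 0.669 from 136 reads, and the other animals of the 8 lay between 0.512 and 0.575. The Pearson chi-square test called no difference between the animals at this TPMT SNP (dispersion 1.40, adjusted P = 0.388). Chance places an animal beyond the limit used in about 1 in 20 groups. The ARPC1B SNP was named for its large spread between animals, so that rate does not apply to it.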

How the results depend on the processing

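Counts of SNPs with AI that moved by over 1.5 times are given first. Testing against the median share of all SNPs left 4 SNPs of the genes matched by symbol only, and thinning to 50 reads an animal left 3. The quasi-binomial test left 22 myosin SNPs, 25 of kinesins, dynein and dynactin, 3 matched by symbol only, and 81 in the related genes. Asking for 30 reads of each allele in 5 animals left 172 SNPs, 139 with the reference allele higher: 19 in myosins, 31 in tubulins, 25 in motors, with 118 in the quasi-binomial test and 87 in the related genes. Without SNPs heterozygous in 15 or more animals 24 myosin and 27 tubulin SNPs were left, and 118 in the quasi-binomial test. Without SNPs within 5 bp of another these were 23 in myosins and 128 in the quasi-binomial test. Without SNPs with 2% or more of the other allele in homozygous animals, or with no such animal, 156 SNPs were left, 127 with the reference allele higher: 21 in myosins, 17 in integrins, 19 in crosslinkers and 26 in tubulins, with 92 in the quasi-binomial test. The settings that remove SNPs or reads leave less to test. The cause of the other changes was not tested.

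Leaving out 1 animal at a time gave 252 to 266 SNPs with AI, 206 to 214 with the reference allele higher, in 58 to 63 genes, 182 to 196 in the quasi-binomial test, 84 to 96 whose animals differ and 122 to 136 in the related genes. By family it gave 16 to 19 (actin), 34 to 40 (myosins), 27 to 32 (integrins), 44 to 49 (crosslinkers), 56 to 63 (tubulins), 33 to 40 (motors), 24 to 27 (intermediate filaments) and 4 to 7 (symbol only).

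Over all settings, the summed test at the named SNPs stayed on its side of the threshold in 769 comparisons, was no longer past it in 6 and newly past it in 5. No SNP past the threshold changed direction, while ITGA6, ITGA7 and LMNA SNPs that were not past it crossed an equal share in some comparisons. No paired analysis was possible because all animals form 1 group.

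Shallow SNPs limit what can be seen, and the smallest detectable imbalance was not computed. ITGA3 and ITGB4 had 18.2 and 19.8 reads. Genotypes were called from the same reads as the allele counts, so an animal with a strong imbalance can be called homozygous and left out.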
